A study of Mus musculus with 14 samples.

Results

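Hox genes encode homeodomain transcription factors, and in the mouse they stand in 4 clusters (Hoxa, Hoxb, Hoxc and Hoxd), with the lowest paralog number at one end and the highest at the other. Genes of low number act toward the head and genes of high number toward the tail, and in the limb bud the posterior members of Hoxa and Hoxd are switched on in order of position, with group 13 in the hand and foot plate. The expression of Hox genes persists after birth in skin and connective tissue, where it marks the position along the body, and Hoxc13 is required for hair and nails. Here the family was followed in RNA of whole paws from newborn mice, the distal end of the limb.

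Members were the rows of the deposited count table whose gene ID had a mouse symbol made of Hox, a cluster letter and a number, which gave 39 genes of 56691 rows. The Hoxa cluster (chromosome 6) gave 11 members, the Hoxb cluster (chromosome 11) gave 10, and the Hoxc (chromosome 15) and Hoxd (chromosome 2) clusters gave 9 each. By number, 8 members were anterior (1 to 3), 15 central (4 to 8) and 16 posterior (9 to 13). A filter on low counts left 36 for testing. Hoxb1, Hoxb13 and Hoxd1 did not pass it.

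Ribosomal RNA-depleted total RNA of whole paws was sequenced from 14 mice. The groups were WT paws on postnatal day 0 (P0, n = 4), paws labelled Krt9-/- on P0 (n = 2), WT paws on day 3 (P3, n = 5) and paws labelled Krt9-/- on P3 (n = 3), and all were otherwise untreated as far as the labels say. Krt9 encodes a keratin of the thick skin of palms and soles. The strain, the part of Krt9 that was deleted, the use of fore- or hindpaws and the number of paws in a library are not stated in the sources. Each library is labelled with 1 litter and 1 sex, and P3 WT replicates 2 and 3 are both males of litter 2.

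Totals per library ran from 28947715 to 41004173 counts, and the Hox genes together held 186 to 282 CPM (counts per 1000000 counts of the library, TMM-scaled where given for single genes). Krt9 itself did not separate the genotypes on P0, with 6.08 and 5.32 CPM in the libraries labelled Krt9-/- and 2.09 to 7.61 in WT. On P3 it stood at 25.2, 7.74 and 11.5 CPM in the labelled Krt9-/- libraries and at 32.9 to 83.0 in WT, without overlap. P0 WT replicate 4, labelled female, had 0.181 CPM of Xist, against 783 to 900 in the other libraries labelled female, and 0.155 CPM of the Y-linked gene Ddx3y. The columns of the deposited table ran through the alphabet in 2 successive runs, of 8 and 6 libraries, and a term for the run was significant for 23.2% of all genes tested and for 5 of the 36 Hox genes, all lower in the second run. What the runs stand for is not stated in the sources.

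The promoters of 4 members are printed because they carry the contrasts among the members. Hoxd13 had the highest level, Hoxd9 and Hoxd10 were the members called lower on P3 over both genotypes, and Hoxb1 was close to absent. Each window runs from 250 bases before to 50 bases after the annotated start, in RefSeq's GRCm38.p6, on the plus strand. Capitals mark matches on either strand, with overlapping matches merged into 1 run. The motifs searched were TATAAA, known as the TATA box. The others were CCAAT, the motif of NF-Y, and GGGCGG, the GC box of Sp1. The last was TGATNNAT, a consensus bound by PBX and HOX proteins together. The windows lie at chr2:74667975-74668274 (Hoxd13), chr2:74697513-74697812 (Hoxd9), chr2:74691641-74691940 (Hoxd10) and chr11:96365508-96365807 (Hoxb1).
Hoxd13: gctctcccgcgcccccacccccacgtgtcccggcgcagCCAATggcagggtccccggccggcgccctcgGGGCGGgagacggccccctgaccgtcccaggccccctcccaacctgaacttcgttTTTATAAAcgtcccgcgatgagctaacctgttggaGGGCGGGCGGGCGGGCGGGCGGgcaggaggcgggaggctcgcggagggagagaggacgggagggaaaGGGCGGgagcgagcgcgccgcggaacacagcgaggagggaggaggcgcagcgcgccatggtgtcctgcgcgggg
Hoxd9: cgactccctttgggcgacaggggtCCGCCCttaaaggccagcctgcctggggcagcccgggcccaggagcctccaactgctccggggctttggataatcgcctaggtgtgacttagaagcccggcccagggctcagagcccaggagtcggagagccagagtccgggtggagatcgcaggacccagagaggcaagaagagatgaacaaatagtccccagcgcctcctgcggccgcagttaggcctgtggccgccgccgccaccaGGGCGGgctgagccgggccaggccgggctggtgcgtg
Hoxd10: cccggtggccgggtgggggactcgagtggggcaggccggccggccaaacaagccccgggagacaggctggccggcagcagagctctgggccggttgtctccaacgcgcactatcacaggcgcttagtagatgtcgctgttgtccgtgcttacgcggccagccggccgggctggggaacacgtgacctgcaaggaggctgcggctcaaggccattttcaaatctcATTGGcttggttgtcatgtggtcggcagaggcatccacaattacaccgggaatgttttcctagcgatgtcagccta
Hoxb1: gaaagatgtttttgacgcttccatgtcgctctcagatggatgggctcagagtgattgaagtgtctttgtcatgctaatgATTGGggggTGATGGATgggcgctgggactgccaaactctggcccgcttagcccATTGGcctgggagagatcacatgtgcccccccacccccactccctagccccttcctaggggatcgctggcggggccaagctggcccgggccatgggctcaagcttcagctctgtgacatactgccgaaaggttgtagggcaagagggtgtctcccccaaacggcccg

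The Hoxd13 window held 37 CpG dinucleotides and 74.3% G or C, and it was the only one of these 4 with a TATA box. The Hoxd9 and Hoxd10 windows held 20 and 22 CpG, and the Hoxb1 window held 10. RefSeq promoters could be matched to 22 of the 39 members, Hoxc13 not among them. All were Hoxa or Hoxd genes except Hoxb1, Hoxb4, Hoxb8 and Hoxc4. Their median was 13.5 CpG and 56.8% G or C, beside 7 CpG and 52.7% in 27003 other promoters. CCAAT was found in 14 of the 22 (63.6%) and in 37.9% of the other promoters. GGGCGG was found in 9 (40.9%) and 35.9%, TATAAA in 3 (13.6%) and 14.2%, and TGATNNAT in 3 (13.6%) and 9.04%. CpG number and level did not run together across the 22 genes (Spearman rho 0.05, a description across genes). Hoxa13, with 45 CpG, and Hoxd1, with 29, stood far apart in level.

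In every library the paw read mainly posterior Hox genes. Summed over genes, as CPM per kilobase of exon, the level was 77.2 for the 16 posterior members, 15.4 for the 15 central members and 1.40 for the 8 anterior members. The posterior share of the summed level was 82.1% ± 1.23 (SD, n = 14), and it ran only from 79.2% to 83.7%. A mean of 1 CPM was reached by 15 of the 16 posterior members, against 8 of the 23 members with numbers up to 8. Level rose with paralog number across the 39 genes (Spearman rho 0.71, a description), closely in Hoxc (0.93) and Hoxa (0.91), less in Hoxd (0.67) and little in Hoxb (0.24).

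**Figure D1:**
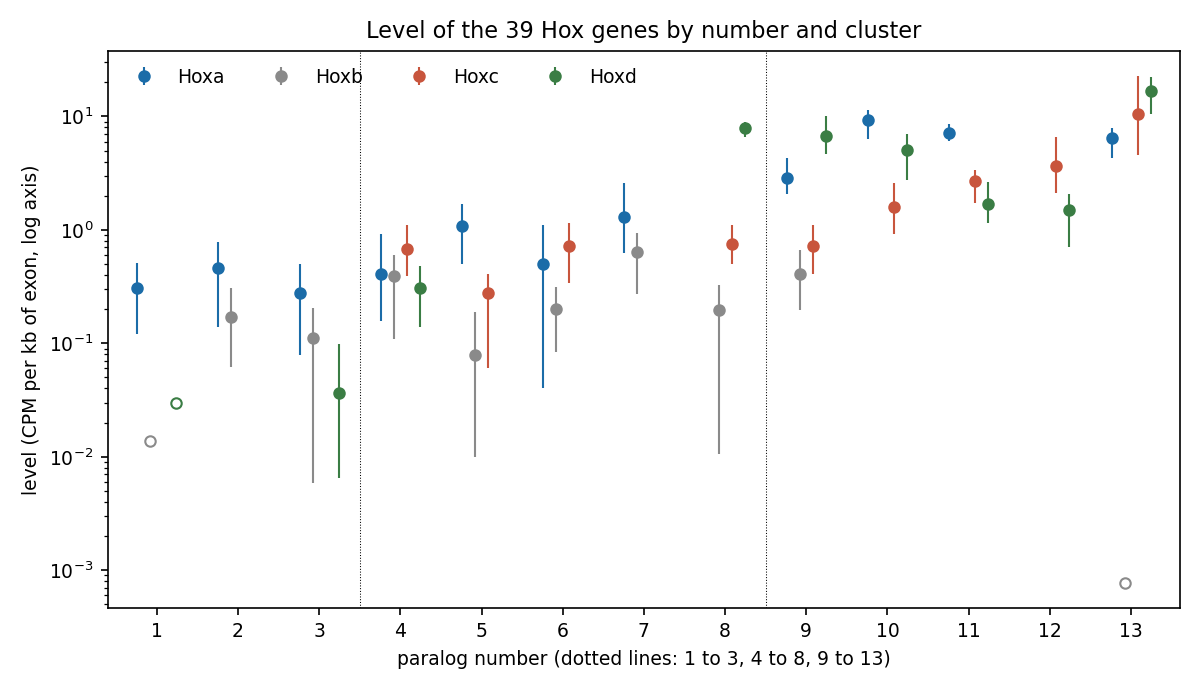
Mean level of each Hox gene over the 14 libraries (CPM per kb of exon, log axis) against its paralog number, with bars from the lowest to the highest library; open symbols are the 3 members that did not pass the filter, drawn without bars. Hoxd13 stands highest at 16.9, Hoxd8 stands out among the central numbers at 7.85, and no Hoxb gene reaches 1.

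The clusters differed in how much of the total they gave. Hoxd held 42.7% ± 5.34 of the summed level (SD, n = 14), Hoxa 32.0% ± 2.22, Hoxc 23.0% ± 6.62 and Hoxb 2.35% ± 0.377. Posterior genes made up 25.7 of 30.0 CPM per kb in Hoxa, 19.2 of 21.6 in Hoxc and 31.8 of 40.1 in Hoxd. In Hoxb they gave 0.411 of 2.21, and all 10 Hoxb genes lay between 0.000779 and 0.637 CPM per kb.

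Group 13, the last to be switched on in the limb bud and the group that patterns the digits, held 34.0 CPM per kb, the most of any paralog group. Hoxd13, mutated in human synpolydactyly, was the most abundant Hox gene, at 16.9 ± 3.56 CPM per kb (SD, n = 14). In P0 WT it gave 47.0, 31.0, 47.7 and 54.4 CPM, in P0 labelled Krt9-/- 49.3 and 55.9, in P3 WT 31.1, 39.2, 47.7, 40.4 and 36.8, and in P3 labelled Krt9-/- 26.3, 40.9 and 40.4. The P3 values lay lower in the mean, but the days overlapped in WT.

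Hoxa13, mutated in human hand-foot-genital syndrome, came seventh at 6.45 ± 0.896 CPM per kb. Its means were 15.7 ± 2.09 CPM in P0 WT (n = 4), 18.8 ± 1.02 in P0 labelled Krt9-/- (n = 2), 14.8 ± 2.57 in P3 WT (n = 5) and 16.2 ± 0.274 in P3 labelled Krt9-/- (n = 3). Hoxb13, a gene of the tail end of the body and the prostate, had 1 count in all, in P3 WT replicate 2. The other 13 libraries had none, which allows up to 0.104 CPM in the shallowest library and 0.0732 in the deepest (3 counts, counting error only).

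Number 11, which in the mouse limb acts mainly on the forearm and lower leg, was led by Hoxa11 at 7.12 ± 0.746 CPM per kb. Its CPM means were 15.7 ± 1.79 in P0 WT, 16.2 ± 0.936 in P0 labelled Krt9-/-, 17.8 ± 1.18 in P3 WT and 14.6 ± 0.631 in P3 labelled Krt9-/-. The exons of Hoxa11 share 35.0% of their length with the antisense RNA Hoxa11os, which stood at 7.60 to 14.7 CPM, and the strand setting of the counting is not stated in the sources, so the value of Hoxa11 is uncertain. Hoxc11 followed at 2.68 ± 0.513 CPM per kb, with CPM means of 5.61 ± 0.948, 6.04 ± 0.708, 4.97 ± 1.41 and 5.43 ± 0.672 in the same order of groups. Hoxd11 came last at 1.69 ± 0.517, with CPM means of 6.77 ± 1.17, 8.15 ± 4.26, 7.14 ± 2.73 and 6.95 ± 1.88. For Hoxc11 and Hoxd11 each pair of group means differed by less than the larger of its SDs.

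Hoxa10, whose group acts mainly on the upper limb segment in the mouse, stood at 9.23 ± 1.41 CPM per kb, within the spread of Hoxc13 (10.6 ± 5.72) above it. Its CPM means were 30.2 ± 5.37 in P0 WT, 33.9 ± 1.30 in P0 labelled Krt9-/-, 30.9 ± 4.08 in P3 WT and 26.6 ± 5.06 in P3 labelled Krt9-/-. Hoxd8 (7.85 ± 0.692 CPM per kb), Hoxa11 (7.12 ± 0.746), Hoxd9 (6.72 ± 1.60) and Hoxa13 (6.45 ± 0.896) follow in the order of levels, each apart from the next by less than the larger SD of the pair. Hoxd8, a central gene, gave most of the 8.79 CPM per kb of its paralog group and was the steadiest abundant member, with a coefficient of variation (CV) of 8.82%. Among the 11 members with a mean of at least 5 CPM, Hoxc13 had the largest CV, 53.9%. The median CV of these 11 was 21.1%, beside 18.8% in all 12409 genes of that level.

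At the other end, Hoxd1 had 27 counts in 5 libraries and Hoxb1 had 15 in 6. Hoxd1 stood at 0.227 CPM in P0 labelled Krt9-/- replicate 2, at 0.279 and 0.0351 in P3 labelled Krt9-/- replicates 1 and 3, at 0.199 in P3 WT replicate 4 and at 0.0376 in P0 WT replicate 2. These are a handful of counts each and set no order between the groups. Its means were 0.0094 ± 0.0188 CPM in P0 WT, 0.113 ± 0.160 in P0 labelled Krt9-/-, 0.0399 ± 0.0891 in P3 WT and 0.105 ± 0.152 in P3 labelled Krt9-/-. Hoxb1, known from the hindbrain, was at 0 in all P0 WT libraries, at 0.0287 ± 0.0406 in P0 labelled Krt9-/-, at 0.066 ± 0.0823 in P3 WT and at 0.0218 ± 0.019 in P3 labelled Krt9-/-. Exons shared with a neighbour make Hoxd3 (62.3% of its length on the same strand), Hoxd4 (52.3%, same strand) and Hoxb3 (52.9%, opposite strand) uncertain as well.

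The first comparison was of P3 with P0. Hoxc13 rose in WT paws, 2.35-fold (log2 fold change 1.23 ± 0.30 SE, adjusted p = 0.0171, edgeR quasi-likelihood), and Hoxd9, which acts in the upper limb with its group, fell by 0.51 on the log2 scale (SE 0.15, adjusted p = 0.030). These were 2 of 36 Hox genes tested, beside 16.6% of all 21619 genes (8.49% higher, 8.07% lower), so the family did not stand out by its count of calls. An unadjusted p under 0.05 was held by 4 of the 36, beside 30.7%. Averaged over genotypes 3 of 36 were called, beside 17.2% of all genes (9.0% higher, 8.24% lower), and 5 of 36 had an unadjusted p under 0.05, beside 31.3%. Hoxc13 rose by 1.12 ± 0.26 (adjusted p = 0.0119), Hoxd9 fell by 0.55 (SE 0.12, adjusted p = 0.0094), and Hoxd10, a gene of the same stretch of the cluster, fell by 0.63 (SE 0.14, adjusted p = 0.0079).

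Hoxc13 gave 12.7, 13.7, 17.0 and 11.3 CPM in P0 WT and 35.5, 55.8, 28.9, 25.3 and 24.0 in P3 WT. It gave 27.3 and 11.7 CPM in P0 labelled Krt9-/- and 31.4, 52.0 and 19.3 in P3 labelled Krt9-/-. The WT days did not overlap, as was so for 16.7% of all genes tested, while in the labelled Krt9-/- paws 1 of the P0 libraries lay above the lowest P3 library. The P3 libraries ran from 19.3 to 55.8 CPM.

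Hoxd9 gave 21.4, 15.0, 19.8 and 14.9 CPM in P0 WT and 11.3, 11.3, 13.6, 12.1 and 14.2 in P3 WT. It gave 17.1 and 16.7 in P0 labelled Krt9-/- and 9.96, 12.9 and 10.8 in P3 labelled Krt9-/-. All 6 P0 libraries lay above all 8 P3 libraries, which held for no other Hox gene tested and, in either direction, for 5.99% of all genes.

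Hoxd10 gave 11.5, 8.46, 9.79 and 12.7 CPM in P0 WT, 11.5 and 11.8 in P0 labelled Krt9-/-, 8.14, 7.82, 10.2, 7.97 and 10.1 in P3 WT, and 4.99, 5.56 and 7.06 in P3 labelled Krt9-/-. The WT days overlapped, and the lowest values of all were the 3 of P3 labelled Krt9-/-. Its change in WT was -0.26 ± 0.17 (adjusted p = 0.316).

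**Figure D2:**
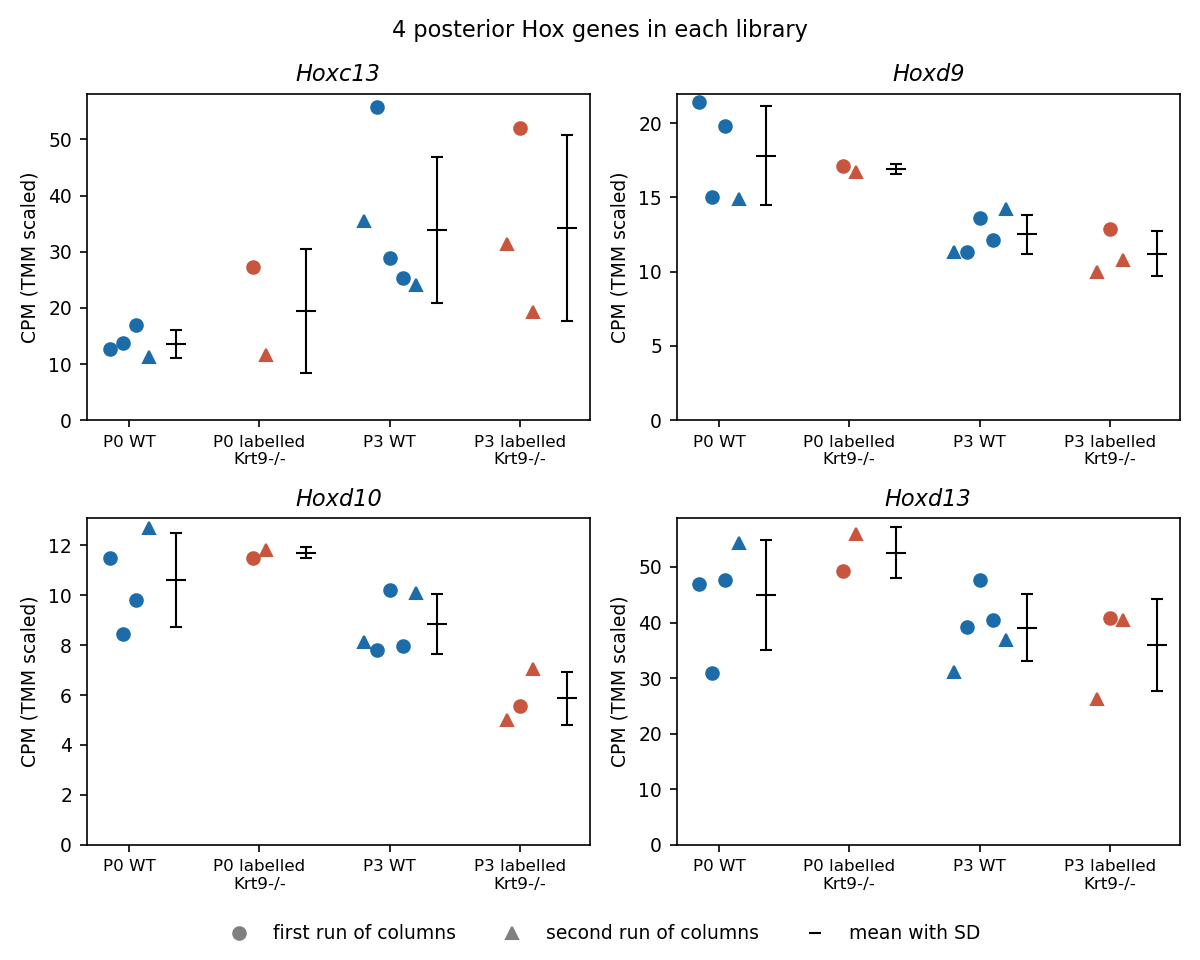
CPM of Hoxc13, Hoxd9, Hoxd10 and Hoxd13 in each library by group (circles: first run of columns, triangles: second run; blue WT, red labelled Krt9-/-), with the group mean and SD at the right of each group. Hoxc13 in P3 WT (24.0 to 55.8) lies above P0 WT (11.3 to 17.0), and Hoxd9 lies lower on P3 in both genotypes.

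Each run of columns, which holds libraries of all 4 groups, was also fitted alone and without the sex term. Dropping the sex term over all 14 libraries left 2 calls in WT and 3 in the average. In these fits Hoxc13 in WT stood at 1.38 ± 0.36 in the first (adjusted p = 0.0468) and 1.41 ± 0.37 in the second (adjusted p = 0.125). Hoxd9 in WT stood at -0.58 ± 0.15 (adjusted p = 0.0112) and -0.22 ± 0.24 (adjusted p = 0.738) in edgeR. Averaged over genotypes, Hoxc13 stood at 1.18 (adjusted p = 0.0999) and 1.26 (adjusted p = 0.0227), Hoxd9 at -0.47 (adjusted p = 0.0491) and -0.45 (adjusted p = 0.115), and Hoxd10 at -0.59 (adjusted p = 0.0399) and -0.73 (adjusted p = 0.0517). A group with 1 library in a run was taken to vary like the others. Without P0 WT replicate 4, the library with little Xist, Hoxc13 in WT was 1.22 (adjusted p = 0.0312) and Hoxd9 -0.59 (adjusted p = 0.0181). The WT call of Hoxc13 was lost without P0 WT replicate 1 (1.13, adjusted p = 0.0622) or replicate 3 (1.29, adjusted p = 0.0538). All genes called for day in WT were then 1764 of 21201 and 1629 of 21750, beside 3581 of 21619 with all libraries. The WT call of Hoxd9 was lost without P0 WT replicate 1 (-0.39, adjusted p = 0.139) or 3 (-0.44, adjusted p = 0.125). It was also lost without P3 WT replicate 1 (-0.47, adjusted p = 0.0626), 2 (-0.47, adjusted p = 0.0717) or 4 (-0.50, adjusted p = 0.0589). All genes called were then 2940 of 21240, 2430 of 21277 and 2683 of 21764. All 3 averaged calls were lost without P0 labelled Krt9-/- replicate 2, a fit that leaves 1 library in that group. The values there were 0.92 (Hoxc13), -0.54 (Hoxd9) and -0.65 (Hoxd10), and far fewer of all genes were called as well. Blocked on the labelled litter number, a fit with 2 residual degrees of freedom, no Hox gene was called for day. That fit called 3 of 21619 genes in WT, 0 in labelled Krt9-/- paws and 90 in the average, so it sets nothing apart for Hox genes. It joins equal litter numbers of P0 and P3, which the sources do not state to be the same litter. WT values were then 1.68 (Hoxc13, adjusted p = 0.294) and -0.89 (Hoxd9, adjusted p = 0.316), and averaged values 0.82 (Hoxc13, adjusted p = 0.210), -0.76 (Hoxd9, adjusted p = 0.116) and -0.75 (Hoxd10, adjusted p = 0.153).

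In the labelled Krt9-/- paws alone no Hox gene was called for day in edgeR, beside 0.768% of all genes, and 6 of 36 had an unadjusted p under 0.05 (15.9% of all genes). DESeq2 called 1, beside 5.04% of all genes, and limma voom 0, beside 0.722%. Hoxd10 was nearest in edgeR, at -1.01 ± 0.22 (adjusted p = 0.0551), and was called with the run of columns as a term (adjusted p = 0.0154, beside 4.95% of all genes). The libraries of 9 members did not overlap between the days in these 2 and 3 libraries, as did 25.6% of all genes.

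The clusters were then described by their medians, with no test of a difference between them. Averaged over genotypes, 7 of 9 Hoxc genes were higher on P3 (median log2 fold change 0.29) and 7 of 8 Hoxd genes lower (-0.39). All 5 posterior Hoxd genes were among the lower ones (-0.63 to -0.08). The labelled Krt9-/- paws weigh as much as WT in this average. In WT alone 5 of 8 Hoxd genes were lower (median -0.18), with 4 of the 5 posterior ones. In labelled Krt9-/- paws 7 of 8 were lower (-0.57). The Hoxc medians were 0.40 in WT and 0.10 in labelled Krt9-/- paws. In the average, 9 of 11 Hoxa genes were lower (median -0.12) and 4 of 8 Hoxb genes (-0.11), beside a median of -0.01 over all 21619 genes. The median SE of single genes was larger, at 0.26 in Hoxa and 0.40 in Hoxb, but it is not the SE of a median over genes. Outside the 3 called genes the lowest adjusted p belonged to Hoxc8 (0.56 ± 0.21, adjusted p = 0.0756), a gene of the trunk, and to Hoxd13 (-0.39 ± 0.15, adjusted p = 0.0856). In the fits of each run alone, without the sex term, 10 of 11 Hoxa genes were higher on P3 in the first (median 0.14) and 0 of 11 in the second (-0.44), while the medians were 0.50 and 0.18 for Hoxc and -0.08 and -0.45 for Hoxd. In WT alone the Hoxd medians of these fits were 0.09 and -0.48. Scaling by library size alone moves the median of all genes in the average from -0.01 to 0.02, and that of the 36 Hox genes from -0.08 to -0.05. For day in WT it moves the median of all genes from -0.01 to 0.10. By number, the 15 posterior members tested had a median of -0.08 with all 3 calls, and the 21 others a median of -0.09 with none. The share called was 17.2% over all genes. The posterior members were measured more precisely, with a median SE of 0.184 against 0.351, so the split sets no difference between them.

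The shares of the clusters were then set side by side in WT. The Hoxc share of the summed level was 12.8 to 19.0% on P0 (16.6% ± 2.74) and 21.0 to 33.5% on P3 (25.8% ± 4.81), without overlap. The Hoxd share was 42.3 to 50.1% (47.4% ± 3.45) and 34.4 to 42.8% (39.6% ± 3.21), which met only at 42.3 and 42.8%. With Hoxc13 left out, the Hoxc share was 8.61 to 13.1% on P0 and 11.2 to 15.7% on P3, which overlapped, and the Hoxd share 45.4 to 53.0% and 43.7 to 48.1%. The level of Hoxc13 relative to Hoxd13 per kb was 0.209 to 0.446 in P0 WT and 0.610 to 1.43 in P3 WT. In the labelled Krt9-/- paws the Hoxc share was 22.8% and 15.4% on P0 and 30.8, 34.5 and 22.7% on P3, so the days overlapped narrowly. These shares were not tested.

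**Figure D3:**
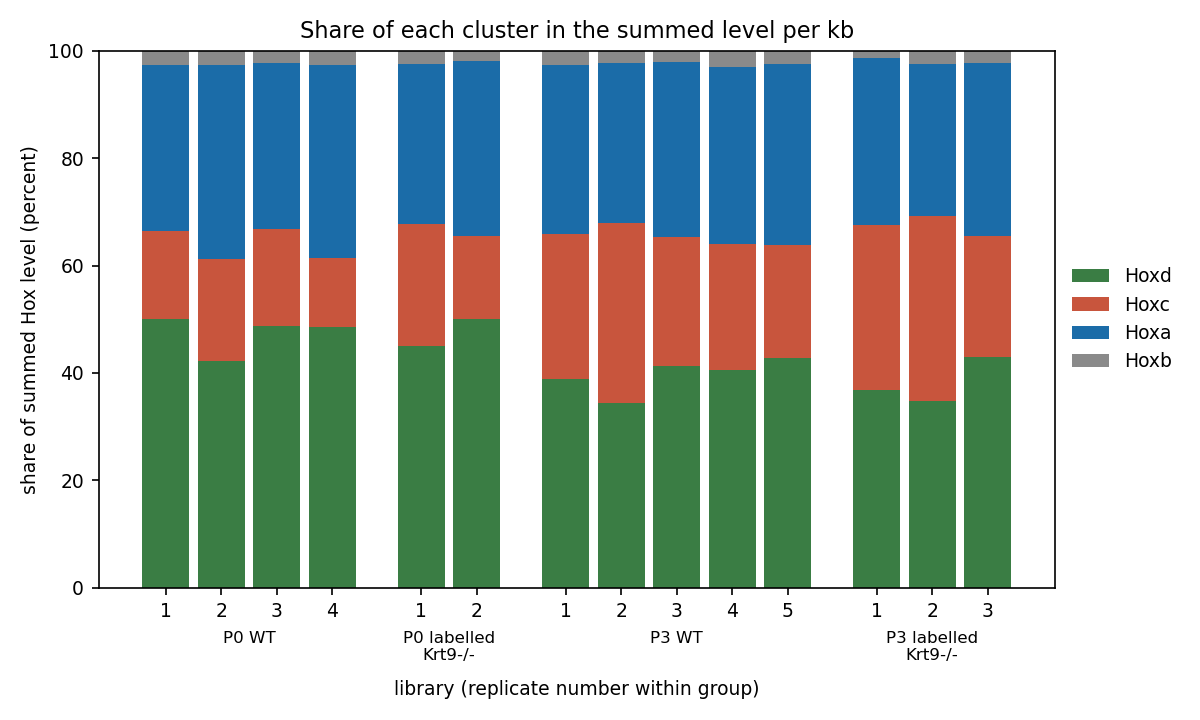
Share of each cluster in the summed Hox level (CPM per kb of exon) in each of the 14 libraries, stacked to 100% and ordered by group. The Hoxc share lies between 21.0% and 33.5% in P3 WT and between 12.8% and 19.0% in P0 WT, and Hoxb stays at 2.93% or less.

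The RNA of some cell type markers also differed between the days, and fewer cells of a type cannot be told apart from less RNA per cell in such samples. The counts of calls in the marker lists stand beside 16.6% of all genes, and a single call in a list of 4 to 9 genes is not far from it. Summed muscle markers ran from 2470 to 7430 CPM in P0 WT and from 1300 to 1930 in P3 WT, with 5 of 7 called lower. Macrophage markers ran from 189 to 287 and from 379 to 446, with 3 of 4 called higher. Epithelium markers ran from 6230 to 12300 and from 6740 to 8400, with 3 of 8 lower, and fibroblast markers from 41100 to 68200 and from 35800 to 81200, with 1 of 9 lower. Endothelium markers ran from 465 to 577 and from 341 to 459, with 1 of 5 lower, and Schwann markers from 391 to 462 and from 504 to 704, with 1 of 4 higher. Tendon markers ran from 634 to 661 and from 664 to 827, with 2 of 4 higher, but in the average over genotypes 0 were called higher and 1 lower. The WT days did not overlap for muscle, macrophage, endothelium, Schwann and tendon markers. Bone markers ran from 2420 to 3280 and from 1950 to 2870, with 1 of 6 lower, cartilage markers from 356 to 2630 and from 529 to 3180, with 0 of 8 called, and hematopoietic markers overlapped between the days (up to 3330 on P0 and 2250 on P3), with 1 of 4 higher. No marker of these lists was at 0 in any library, and their part in the Hox values was not tested.

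Hoxc13 is known to control Foxn1 and hair keratins in the mouse, so genes of hair and nail were read beside it. Of 12 in the table, chosen after their values were seen, 2 were called in WT and 3 in the average, all higher, beside 16.6% and 17.2% of all genes. Krt35 rose from 20.6 ± 2.18 CPM in P0 WT to 165 ± 112 in P3 WT (2.82 on the log2 scale, adjusted p = 0.0074), and Foxn1 rose in the average over genotypes (0.87, adjusted p = 0.0146). Krt35 gave 243, 323, 75.6, 72.8 and 113 CPM in P3 WT and 175, 229 and 51.4 in P3 labelled Krt9-/-. The sum over the 12 genes overlapped between the WT days, with 365 to 498 CPM on P0 and 149 to 1300 on P3, so 1 P3 library lay below every P0 library.

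The second comparison set paws labelled Krt9-/- against WT. No Hox gene was called on P0, on P3 or averaged over the days in edgeR, DESeq2 or limma voom, beside 0.00463%, 0.00463% and 0.00925% of all genes in edgeR and in limma voom, and 0.0416%, 0.12% and 0.0139% in DESeq2. Unadjusted p-values under 0.05 in edgeR were held by 1, 3 and 2 of the 36, beside 5.96%, 6.67% and 4.45% of all genes. These counts moved with single libraries. Without P3 labelled Krt9-/- replicate 2 they were 2, 9 (all lower) and 7, while 200 of 21708 genes, none of them Hox, were called on P3 and 3697 had an unadjusted p under 0.05. Without P3 labelled Krt9-/- replicate 1 or 3 the P3 count was 1, and over all single libraries left out the counts ran from 0 to 3, from 1 to 9 and from 1 to 7. In the fit of all libraries Hoxd10 had the lowest p on P3, at -0.62 ± 0.19 (adjusted p = 0.694). Its 3 labelled Krt9-/- values (4.99 to 7.06 CPM) lay below all 5 of WT (7.82 to 10.2), as 2.56% of all genes did in either direction, while on P0 the genotypes overlapped.

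Hoxc4, a gene of the neck and upper trunk, was the one member whose labelled Krt9-/- values lay above WT on both days. It stood at 1.43 ± 0.299 CPM in P0 WT and 2.44 ± 0.572 in P0 labelled Krt9-/-, and at 1.43 ± 0.38 and 2.18 ± 0.363 on P3. The groups did not overlap on either day, yet the averaged difference of 0.64 ± 0.21 had an adjusted p of 0.958. The libraries of a genotype did not overlap for 5 members on P0, against 11.3% of all genes, and for 4 on P3, against 2.56%.

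The standard errors set the precision. For the 11 members of at least 5 CPM the genotype differences on P3 lay between -0.62 and 0.20 with a median SE of 0.19, and those on P0 between -0.08 and 0.44 with a median SE of 0.21. Hoxd13 stood at -0.16 ± 0.20 on P3 and 0.22 ± 0.22 on P0, Hoxa13 at 0.10 ± 0.15 and 0.26 ± 0.18, and Hoxc13 at 0.20 ± 0.33 and 0.44 ± 0.38. Low members were far less precise, such as Hoxa6 with -1.37 ± 0.76 on P3. The Hoxb genes tested lie 3.8 to 3.9 Mb from Krt9 on chromosome 11 (GRCm38), and none of the 8 was called, with a median of -0.52 on P3 and 0.18 on P0. Summed bone markers were lower on P0, at 1450 to 1590 CPM against 2420 to 3280 in WT. They overlapped on P3, at 1220 to 1980 against 1950 to 2870, with 1 of 6 called in the average. Muscle markers also lay lower on P0 (2210 to 2260 against 2470 to 7430) and tendon markers on P3 (555 to 662 against 664 to 827), with none called. Each overlapped on the other day, and the other marker lists overlapped on both days. The part of these markers in the Hox values was not tested.

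**Figure D4:**
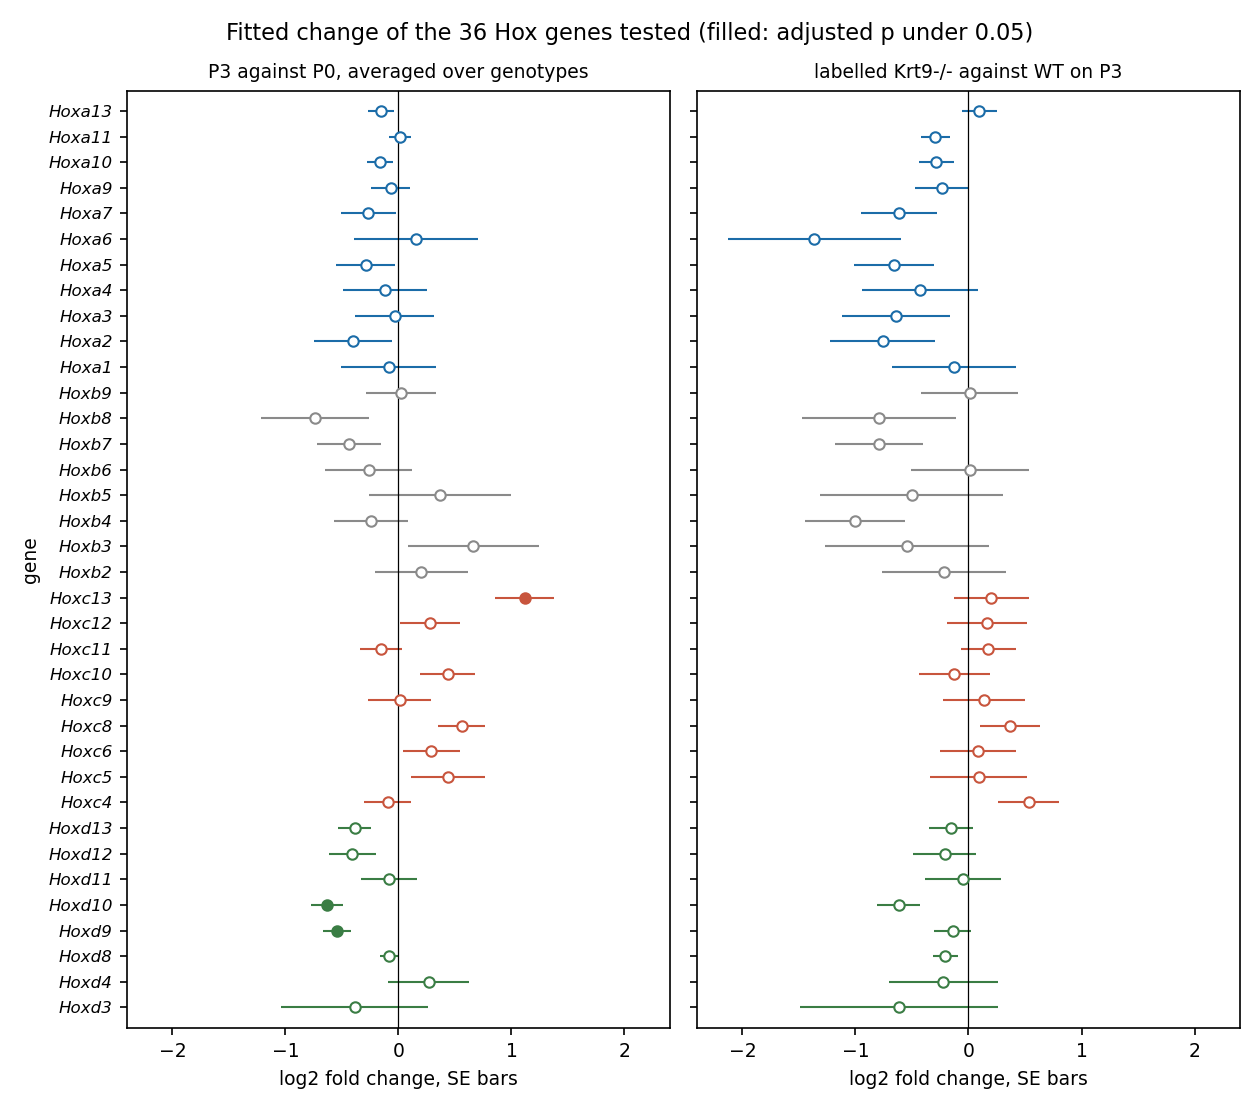
Fitted log2 fold change with SE of the 36 Hox genes tested, for P3 against P0 averaged over genotypes (left) and for labelled Krt9-/- against WT on P3 (right), coloured by cluster and filled where the adjusted p is under 0.05. Only Hoxc13 (1.12), Hoxd9 (-0.55) and Hoxd10 (-0.63) are filled at the left, and none at the right.

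Whether the day effect differed between genotypes was tested as an interaction. None of 36 Hox genes was called in edgeR, DESeq2 or limma voom, beside 0.0% of all genes in edgeR and in limma voom and 0.402% in DESeq2, and 2 had an unadjusted p under 0.05 (7.6% of all genes). Hoxd10 stood at -0.75 ± 0.28 (adjusted p = 0.594) and Hoxd8 at -0.43 ± 0.17 (adjusted p = 0.604). Negative values were held by 28 of the 36 (median -0.35), by 6 of 8 Hoxb genes (-0.57), 8 of 11 Hoxa (-0.17), 6 of 9 Hoxc (-0.23) and all 8 Hoxd (-0.37), beside a median of -0.02 over all genes. Without P0 labelled Krt9-/- replicate 1 the median of the 36 was -0.15, and without P3 labelled Krt9-/- replicate 2 it was -0.49, with 6 of 36 at an unadjusted p under 0.05. Members read in the same libraries are not independent of each other.

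Partners and neighbours of the Hox genes were read in the same fit. Of the 9 TALE homeodomain cofactors that bind DNA with HOX proteins, none was called in any comparison, with medians between -0.09 and 0.07. The share over all genes was 16.6% for day in WT and 0.00463% for genotype on P3, so the count does not set these 9 apart. Pbx2 stood at 40.6 to 59.4 CPM over the 14 libraries. Of 10 non-coding RNAs of the clusters tested, 1 was called for day in the average over genotypes, beside 17.2% of all genes, and 0 in either genotype alone. The 1 called was Hotair, transcribed from the antisense strand between Hoxc11 and Hoxc12 (1.02, adjusted p = 0.0385). It went from 0.808 ± 0.37 CPM in P0 WT to 1.62 ± 0.317 in P3 WT, and from 1.10 ± 0.671 to 2.29 ± 0.451 in labelled Krt9-/-. Hoxc11 and Hoxc12 were not called.

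Limb patterning genes, 22 tested, had 3 called higher and 1 lower for day in WT, 4 of 22 beside 16.6% of all genes. Alx4, a homeobox gene of the anterior limb, went from 6.02 ± 0.533 to 14.1 ± 4.44 CPM (1.22, adjusted p = 0.0050). Msx2, of the distal limb and nail, went from 6.99 ± 1.55 to 22.1 ± 10.5 (1.58, adjusted p = 0.0126), and Prrx2, of limb mesenchyme, from 20.6 ± 4.34 to 33.2 ± 4.16 (0.68, adjusted p = 0.020). The gene that fell was Gli3, the transcriptional mediator of hedgehog signalling, named after its values were seen, from 74.0 ± 12.8 to 49.1 ± 9.26 (-0.61, adjusted p = 0.0227). The list's median was -0.14, beside -0.01 over all genes.

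Of 10 genes known as targets of distal Hox proteins, 1 was called higher and 2 lower for day in WT, beside 16.6% of all genes. Cyp26b1, which breaks down retinoic acid, fell in WT from 106 ± 30.6 to 44.1 ± 5.51 CPM (-1.28, adjusted p = 3.8e-04). Bmp2, a bone morphogenetic protein, fell from 42.8 ± 11.5 to 24.8 ± 1.62 (-0.79, adjusted p = 0.0073). Epha4, an ephrin receptor, rose from 24.9 ± 3.04 to 38.4 ± 8.61 (0.57, adjusted p = 0.0316). Of 23 chromatin regulators of Hox clusters, 1 was called higher and 1 lower for day in WT, beside 16.6% of all genes. The Polycomb methyltransferase gene Ezh2 rose from 29.0 ± 6.12 to 57.6 ± 3.64 (1.00, adjusted p = 4.6e-04). No gene of these lists was called for genotype on P0, on P3 or in the average.

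Genes that tell fore- from hindlimb were read because the labels do not say which paws were taken. Tbx5, of the forelimb, stood at 13.4 to 37.4 CPM and Tbx4, of the hindlimb, at 6.19 to 13.9, so both were read in every library. Pitx1, of the hindlimb, was low at 0.0309 to 2.11. Tbx5 had means of 25.0 ± 4.32 CPM in P0 WT, 24.8 ± 7.47 in P3 WT and 18.5 ± 7.47 in P3 labelled Krt9-/-, and stood at 37.4 and 19.0 in the 2 P0 labelled Krt9-/- libraries. In the order P0 WT, P0 labelled Krt9-/-, P3 WT and P3 labelled Krt9-/-, Tbx4 had 9.45 ± 0.247, 11.6 ± 3.18, 11.3 ± 2.07 and 9.11 ± 3.72, and Pitx1 had 1.37 ± 0.715, 0.662 ± 0.687, 0.494 ± 0.313 and 0.593 ± 0.127. None of the 4 limb-type genes was called, beside 16.6% of all genes for day in WT and 0.00463% for genotype on P3.

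Hoxc9, Hoxc10 and Hoxc11 are known as hindlimb members of the Hoxc cluster in the mouse, so their levels were set against a hindlimb index over the 14 libraries (log2 Pitx1 plus log2 Tbx4 less 2 times log2 Tbx5, each of CPM + 0.5). Pearson's r was -0.36 for Hoxc10 (permutation p = 0.205, adjusted over 3 relations 0.615), with a Spearman rho of -0.34 (permutation p = 0.233, adjusted 0.640). It was -0.19 for Hoxc11 (permutation p = 0.523, adjusted 0.784; rho -0.23, p = 0.427, adjusted 0.640) and -0.03 for Hoxc9 (permutation p = 0.928, adjusted 0.928; rho 0.07, p = 0.819, adjusted 0.819). Without the 2 libraries farthest from the median of the index r was -0.45, -0.24 and -0.06, in that order. Within the runs of columns Hoxc10 stood at -0.22 (n = 8) and -0.29 (n = 6), Hoxc11 at 0.13 and 0.19 and Hoxc9 at 0.24 and 0.07, with permutation p adjusted 0.742 and 0.899 for all 3. No relation was detected at this number of libraries.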

How the data were processed

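Ribosomal RNA-depleted total RNA of whole paws was sequenced, and the deposited table holds raw counts per gene and library, as the authors made them. Per the submitters' processing notes, GRCm39, featureCounts and STAR 2.7.10a were used, and no source states the strand setting or filters. All values were whole numbers. The Hox genes, lists and tests were chosen with earlier results of these data known. Symbols and exon lengths came from GENCODE vM21 (GRCm38), of another build than the alignment.

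The counts were filtered with filterByExpr, TMM-scaled and fitted with edgeR 4.0.16 quasi-likelihood (R 4.3.3): 21619 genes, 14 libraries in 1 fit, labelled sex as covariate, 9 residual degrees of freedom, Benjamini-Hochberg over all genes, called under 0.05. P-values measure the spread between mice as labelled, and the 2 P3 WT males of litter 2 counted as separate mice. With their counts summed, 1 Hox gene was called higher and 1 lower for day in WT. In the average over genotypes 1 was then called higher and 2 lower. CPM are TMM-scaled; levels per kb divide by the bases of all exons. DESeq2 1.42.0, limma 3.58.1 voom and other settings were alternatives. Hox genes were given with group values when called (mean in some group from 1 CPM up), when numbered 11 or 13, or when among the 3 highest or 3 lowest per kb; of context lists, the 3 called members of smallest adjusted p or the 2 of highest level. The labels give litter numbers, and libraries of different groups sharing one had deviations correlating from -0.08 to 0.14 over 7 pairs. The fit was tested on simulated data. Some context genes that the rule would name are not reported here.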

Additional observations from a re-analysis of the deposited data

Results flagged for a closer look

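In all, 7 values stood apart from the other 3 libraries of P0 WT by more than Dixon's 95% limit, of 84 groups screened, where chance gives about 1 in 20. In P0 WT replicate 4, the library with little Xist, Hoxa13 was high at 18.8 CPM (the others 14.4 to 15.2), Hoxb2 high at 0.595 (0.429 to 0.451) and Hoxc12 low at 2.20 (3.18 to 3.31). In P0 WT replicate 3, Hoxb5 was high at 0.429 CPM (0.104 to 0.155) and the Hoxb share low at 2.24% (2.61 to 2.66). In P0 WT replicate 1, Hoxb9 was high at 1.70 CPM (0.929 to 1.05). In P0 WT replicate 2, the posterior share was low at 79.2% (82.6 to 82.9). No cause was tested.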

How the results depend on the processing

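Of the 36 Hox genes tested, the 2 calls for day in WT became 1 with library size alone as scaling and 1 without the filter, and 0 with litter number as a replicate block and 0 in the second run of columns fitted alone without the sex term. They became 3 with DESeq2, with the run as a term and in the first run alone without the sex term. They ranged from 0 to 2 when single libraries were left out, with 0 without P0 WT replicate 1 or 3 and 1 without P3 WT replicate 2 or 4. The 3 averaged calls became 4 with DESeq2, with the run as a term and without the filter, and 0 with the replicate block, and ranged from 0 to 4 without single libraries. Each run fitted alone leaves 1 library in some groups, so its averaged calls are not counted here. The calls over all genes moved as well. For day in WT they were 3581 of 21619 in the fit described above and 3438 with library size alone. They were 4203 of 36822 without the filter, 4696 with DESeq2, 5570 with the run as a term and 3 with the replicate block. In the average they were 3728 of 21619, and 4448 of 36822 without the filter. DESeq2 gave 4876 there, the run term 5701 and the replicate block 90. For day in labelled Krt9-/- paws, 0 calls became 2 without the filter and 1 each with a filter of 1 CPM in 4 libraries, with DESeq2 and with the run as a term, and ranged from 0 to 1 without single libraries. Over all genes the calls in these paws went from 166 of 21619 to 1692 of 36822 without the filter. They were 179 of 16224 with the 1 CPM filter, 1090 with DESeq2 and 1070 with the run as a term. Hoxc13 in these paws turned to -0.046 under the replicate block. Left out singly, libraries moved Hoxc13 in WT between 1.05 and 1.35 and Hoxd9 between -0.59 and -0.39. Genotype and interaction counts were 0 under every setting fitted and with every library left out.

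Shares moved with the length used. The Hoxa share was 34.8% by coding length, 37.0% without length, 35.3% by the longest transcript and 39.1% without Hoxd13. The Hoxb share was 2.76% by coding length, 1.57% over members of at least 1 CPM and 2.86% without Hoxd13, where the Hoxd share was 30.2%. The posterior share was 79.2%, 84.3% and 78.2% under the same 3 settings. The limb-index correlation changed sign for Hoxc9 (0.11 with a pseudocount of 0.1 CPM, 0.24 and 0.07 within the runs) and for Hoxc11 (0.16, 0.13 and 0.19). Runs alone and the longest transcript were chosen after seeing the data. The cause of these moves was not tested. Members under 1 CPM rest on few counts, and P0 labelled Krt9-/- on 2 libraries.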
